A study of Mus musculus with 9 samples.

Results

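Immediate early transcription factor genes were followed in the heart RNA of 9 libraries, 3 each of CK, DCM and SPM mice. They were chosen by symbol as Fos, Fosb, Jun, Junb, Egr1, Egr2, Egr3, Nr4a1, Ier2 and Atf3, and 9 of these 10 genes were measured among the 22851 genes of the counts matrix, while Egr2 was not analysed here. All mice were males by the study's methods, of the strain given as C57BL/6 in the labels and as C57BL/6J in the methods. CK mice were normal controls given the citrate buffer alone. DCM mice were a diabetic cardiomyopathy model, made diabetic by streptozotocin, a toxin of the insulin-producing beta cells, and kept for 12 weeks. SPM mice were made diabetic in the same way for 12 weeks and were also injected with spermine, a polyamine, before and after the streptozotocin, so spermine was compared with no spermine only within diabetic mice. No group received spermine without diabetes. The tissue label of every library is heart myocardium, whereas the extraction text shared by all 9 libraries speaks of retinas.

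Immediate early genes are transcribed within minutes of a stimulus, without new protein synthesis, because the factors that start them are already present and need only be phosphorylated. In the heart they are known to respond to stretch, adrenergic drive, calcium entry, growth factors and injury, and in any tissue they can also respond to the handling of the tissue before it is frozen. Most of the measured genes encode DNA-binding factors that carry the signal on to later genes. Fos, Fosb, Jun, Junb and Atf3 encode basic leucine zipper proteins that pair as AP-1 and related dimers, Egr1 and Egr3 encode zinc finger factors, Nr4a1 encodes an orphan nuclear receptor, and Ier2 encodes a small nuclear regulator.

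Total counts per library lay between 29901300 and 39718680, of which mitochondrial genes took 21.0% to 21.1% in the SPM libraries, against 13.7% to 18.9% in the other groups. The summed level of 6 cardiomyocyte markers, such as Myh6 and Tnnt2, was 35405 to 48246 CPM, a count scaled by the normalized size of its library, and that of 7 retinal markers was 0.584 to 1.79 CPM, so the libraries carried the markers of heart muscle. The study's methods give 3 mice per group in one place and pools of several hearts in another, so the p-values below measure the spread between libraries, which may be technical. SPM replicate 2 stood apart in one respect. For 69.04% of genes its level fell between the levels of the other SPM libraries. A mix of 45.3% of replicate 1 with the rest of replicate 3 matched it within sampling noise, as the squared deviation had a median over genes of 0.476 times that noise. The next lowest of the 252 combinations of libraries was at 1.60. Of 2656 genes without a count in SPM replicates 1 and 3, 30 had a count in replicate 2, a number that was not compared with other sets of libraries. Calls that use the SPM group are therefore given with and without this library.

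The genes were located by their Ensembl identifiers in GENCODE M21, build GRCm38. Fos (ENSMUSG00000021250) has 4 exons at chr12:85473890-85477273 on the plus strand, Fosb (ENSMUSG00000003545) has 4 exons at chr7:19302696-19310051 on the minus strand, and Nr4a1 (ENSMUSG00000023034) has 8 exons at chr15:101254269-101274795 on the plus strand. Jun (ENSMUSG00000052684) at chr4:95049034-95052222 and Junb (ENSMUSG00000052837) at chr8:84974484-84978718 each have 1 exon and lie on the minus strand. Ier2 (ENSMUSG00000053560) is also a single-exon gene, at chr8:84661331-84662852 on the minus strand. Atf3 (ENSMUSG00000026628) has 4 exons at chr1:191170296-191218039 on the minus strand, Egr3 (ENSMUSG00000033730) has 2 exons at chr14:70077203-70082614 on the plus strand, and Egr1 (ENSMUSG00000038418) has 3 exons. Junb overlaps Prdx2 on the opposite strand, which was measured at 278.7 to 357.6 CPM, and Jun overlaps its antisense gene Junos at 1.49 to 4.34 CPM. Whether the counting used strand is not given in the sources used here, so reads of these overlapping pairs cannot be told apart with certainty.

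Promoters are shown for Fos and Nr4a1, the genes that passed a test below, for Fosb, which varied most between libraries, and for Jun, which varied least. They are the 250 bases before the RefSeq start site in GRCm38.p6, written 5′ to 3′ on the gene's own strand. Capitals mark 3 motifs searched on both strands, the TGACG core of the cAMP response element (CGTCA on the other strand), the EGR site GCGNGGGCG and the TATA box TATAAA. The start site used for Nr4a1 lies inside the gene as GENCODE draws it.
Fos promoter, chr12:85473640-85473889, plus strand: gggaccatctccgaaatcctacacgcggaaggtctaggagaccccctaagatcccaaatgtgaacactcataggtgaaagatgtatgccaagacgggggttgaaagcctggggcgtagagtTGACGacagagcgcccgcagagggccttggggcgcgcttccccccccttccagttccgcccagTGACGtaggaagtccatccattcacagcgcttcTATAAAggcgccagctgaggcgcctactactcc
Nr4a1 promoter, chr15:101266596-101266845, plus strand: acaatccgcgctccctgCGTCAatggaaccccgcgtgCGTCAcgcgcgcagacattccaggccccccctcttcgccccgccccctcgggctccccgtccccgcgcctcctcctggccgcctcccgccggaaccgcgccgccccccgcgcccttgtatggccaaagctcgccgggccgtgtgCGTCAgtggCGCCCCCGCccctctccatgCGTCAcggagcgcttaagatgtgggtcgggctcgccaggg
Fosb promoter, chr7:19310046-19310295, minus strand: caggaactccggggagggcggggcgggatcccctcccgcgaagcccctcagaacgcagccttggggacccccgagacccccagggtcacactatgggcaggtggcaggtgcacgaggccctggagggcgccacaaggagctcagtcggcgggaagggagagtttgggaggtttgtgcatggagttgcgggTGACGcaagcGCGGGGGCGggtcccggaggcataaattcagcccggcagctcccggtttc
Jun promoter, chr4:95052223-95052472, minus strand: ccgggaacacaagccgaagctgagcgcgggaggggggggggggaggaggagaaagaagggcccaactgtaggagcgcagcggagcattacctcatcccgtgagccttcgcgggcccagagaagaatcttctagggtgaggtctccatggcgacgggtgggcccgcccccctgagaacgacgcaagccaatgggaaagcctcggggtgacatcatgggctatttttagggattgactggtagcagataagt

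The Fos promoter held the TGACG core at positions -129 and -66 and the TATA box at -33, counted from the start site. The Nr4a1 promoter held 4 copies of the core, at -233, -213, -69 and -40, and an EGR site at -60. The Fosb promoter held 1 core at -60 and an EGR site at -50, and the Jun promoter held none of the 3 motifs. Of the 6 members with a promoter entry, 5 held the core, with Junb at -106 and Atf3 at -7 as the others, beside 17.8% of 32851 mouse promoters of this length. The EGR site stood in 4.70% and TATAAA in 12.4% of those promoters. The complete cAMP response element TGACGTCA, the AP-1 site TGANTCA and the CArG box, the site of serum response factor, were in none of the 6 windows, and stood in 1.55%, 6.75% and 1.47% of all promoters. A match is a description of the letters in the window.

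Per unit of length, the 9 genes fell into a higher group of 7 and a lower pair. On the FPKM scale, which divides a count by the length of the gene and the size of the library, the mean level over 9 libraries was 49.0 ± 18.2 (SD, n = 9) for Nr4a1, 31.5 ± 15.4 for Junb, 30.8 ± 7.28 for Jun and 24.4 ± 11.6 for Ier2. It was 15.4 ± 11.9 for Egr1, 13.3 ± 13.6 for Fos and 10.2 ± 4.32 for Atf3. Fosb followed at 1.43 ± 0.692 and Egr3 at 1.00 ± 0.444. Neighbours in this order overlapped in their ranges except Atf3, whose lowest library was at 2.58 FPKM, and Fosb, whose highest was at 2.30 FPKM. The other values below are normalized CPM, which compare libraries for a single gene and not genes with each other.

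**Figure D1:**
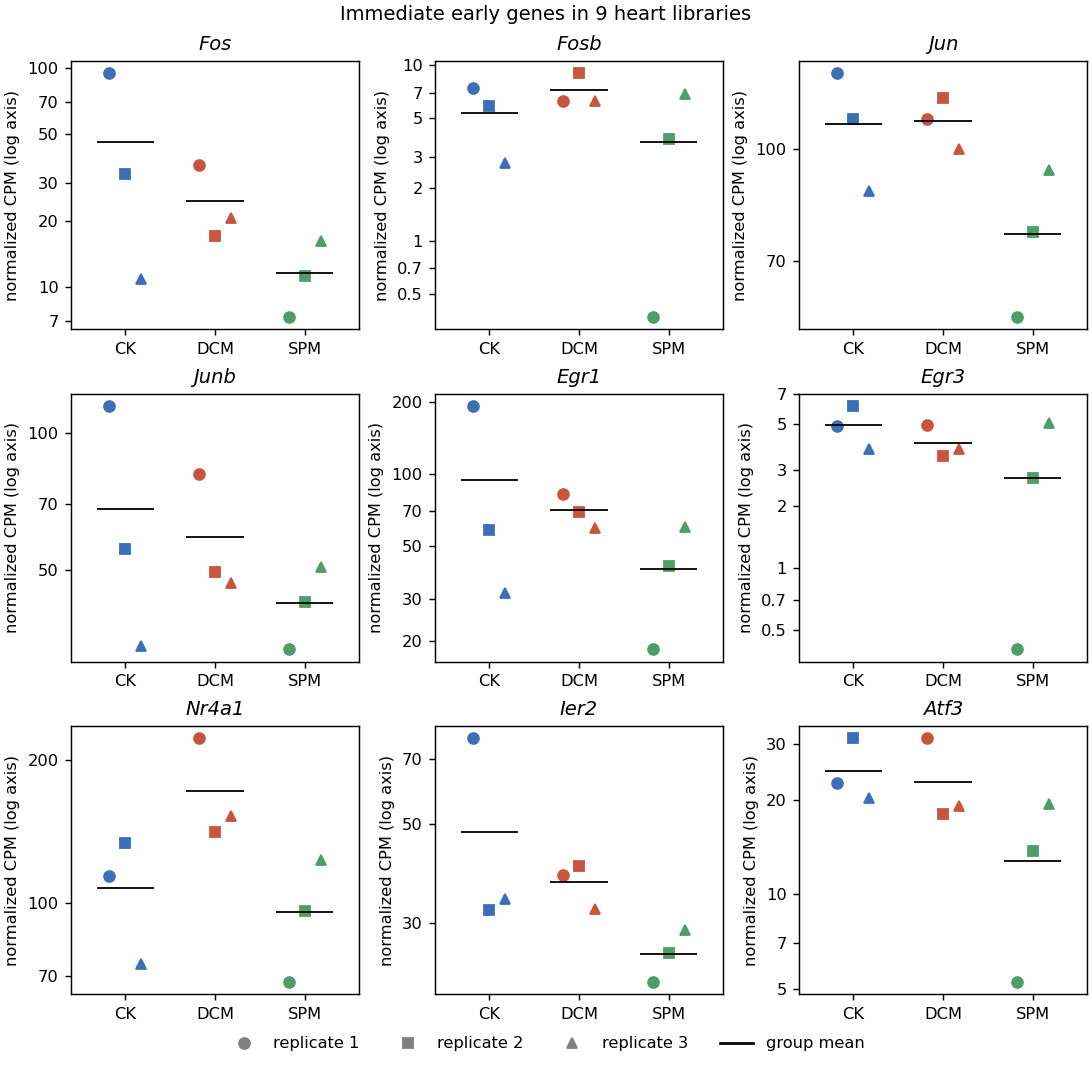
Normalized CPM (log axis) of the 9 measured immediate early genes in the 3 CK, 3 DCM and 3 SPM libraries, with the replicate number as the symbol and the group mean as a line. For Fos the CK libraries ran from 10.9 to 94.7 CPM, DCM from 17.1 to 36.0 CPM and SPM from 7.33 to 16.3 CPM, and SPM replicate 1 was the lowest library for all 9 genes.

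Among the Fos genes, Fos, the partner that gives AP-1 its stability, had the widest CK group of the 9 genes, with a ratio of 8.66 between its highest and lowest library. Fos was at 94.7, 32.8 and 10.9 CPM in CK replicates 1 to 3, at 36.0, 17.1 and 20.8 CPM in DCM and at 7.33, 11.3 and 16.3 CPM in SPM. All DCM libraries lay inside the CK range and all SPM libraries lay below all DCM libraries. Fosb, a paralog of Fos, was at 7.46, 5.83 and 2.79 CPM in CK, at 6.26, 9.01 and 6.30 CPM in DCM and at 0.370, 3.83 and 6.84 CPM in SPM. SPM replicate 1 stood far below the other 8 libraries and SPM replicate 3 lay inside the DCM range. That low value rested on 12 counts, with an exact Poisson 95% interval of 6.20 to 21.0 counts for counting error only, beside 119 and 210 counts in the other SPM libraries.

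Among the Jun genes, Jun, the common partner of the Fos proteins, was the steadiest member. Jun was at 127.2, 110.1 and 87.4 CPM in CK, at 110.1, 117.8 and 99.98 CPM in DCM and at 58.6, 76.8 and 93.6 CPM in SPM. CK and DCM overlapped fully and the highest SPM library lay just below the lowest DCM library. Junb, which competes with Jun for the same partners, was at 114.9, 55.6 and 34.1 CPM in CK, at 81.2, 49.5 and 46.8 CPM in DCM and at 33.5, 42.7 and 50.9 CPM in SPM. CK replicate 1 was the highest of all and SPM replicate 3 lay among the DCM libraries. Atf3, a stress-induced relative that can repress its targets, was at 22.6, 31.4 and 20.2 CPM in CK, at 31.3, 18.0 and 19.1 CPM in DCM and at 5.27, 13.7 and 19.3 CPM in SPM. All SPM libraries lay below all CK libraries, whereas SPM replicate 3 lay inside the DCM range.

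Egr1, the most used early growth response factor, was at 192.2, 58.1 and 31.6 CPM in CK, at 82.5, 69.2 and 59.5 CPM in DCM and at 18.4, 41.2 and 60.1 CPM in SPM. The CK group alone covered most of the range, and SPM replicate 3 was just above the lowest DCM library. Egr3, its less abundant relative, was at 4.88, 6.14 and 3.796 CPM in CK, at 4.93, 3.49 and 3.78 CPM in DCM and at 0.400, 2.73 and 5.08 CPM in SPM. The value of SPM replicate 1 rested on 13 counts, with an exact Poisson 95% interval of 6.92 to 22.2 counts, and SPM replicate 3 was above all DCM libraries.

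Nr4a1, the receptor also called Nur77, was at 114.0, 134.0 and 74.4 CPM in CK, at 222.2, 141.3 and 152.5 CPM in DCM and at 68.2, 96.2 and 123.3 CPM in SPM. The DCM libraries lay above all CK and all SPM libraries, while CK and SPM overlapped. Ier2 was at 77.9, 32.0 and 33.9 CPM in CK, at 38.4, 40.3 and 32.3 CPM in DCM and at 22.1, 25.6 and 28.8 CPM in SPM. CK replicate 1 stood apart from the others of its group, and all SPM libraries lay below all CK and all DCM libraries.

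In DCM compared to CK, 1 of the 9 genes changed. Nr4a1 rose, from a mean of 107.5 ± 30.3 CPM to 172.0 ± 43.8 CPM (SD, n = 3 each), a log2 fold change of 0.68 with SE 0.19. Its adjusted p was 0.0439 by the quasi-likelihood method of edgeR, adjusted by Benjamini-Hochberg over 14402 genes, but 0.157 by DESeq2, 0.0858 with all 9 libraries in one edgeR fit and 0.135 by limma. A gene was called when the adjusted p was under 0.05 with a change of 1.5-fold or more, which 4.34% of all genes tested met, 2.03% as a rise. The groups of Nr4a1 did not overlap, as for 14.5% of all genes in this direction. The fitted log2 fold changes of the other 8 genes were -0.90 for Fos, -0.41 for Egr1, -0.37 for Ier2, -0.28 for Egr3, -0.20 for Junb, -0.11 for Atf3, 0.01 for Jun and 0.42 for Fosb, with adjusted p from 0.331 to 0.962. Their groups overlapped. The median over the 9 genes was -0.20, beside -0.0025 over all genes.

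The call of Nr4a1 and the sign of 6 other genes, Fos, Jun, Junb, Egr1, Ier2 and Atf3, changed when single libraries were left out, while Fosb (0.11 to 0.72) and Egr3 (-0.44 to -0.089) kept their sign. Nr4a1 kept a log2 fold change of 0.46 to 0.87 with any library left out, but its adjusted p was 0.0834 without CK replicate 3 and, with DCM replicates 1, 2 and 3 left out in turn, 0.165, 0.0521 and 0.0715. Without CK replicate 1, the log2 fold change was 0.17 for Fos, 0.40 for Junb, 0.17 for Ier2 and 0.65 for Egr1, all of opposite sign, the adjusted p of Egr1 was 0.0405, the median over the 9 genes was 0.17 and 3.88% of all genes were called. Without CK replicate 3, where 4.73% of all genes were called, Fos had a log2 fold change of -1.36 with an adjusted p of 0.0230.

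**Figure D2:**
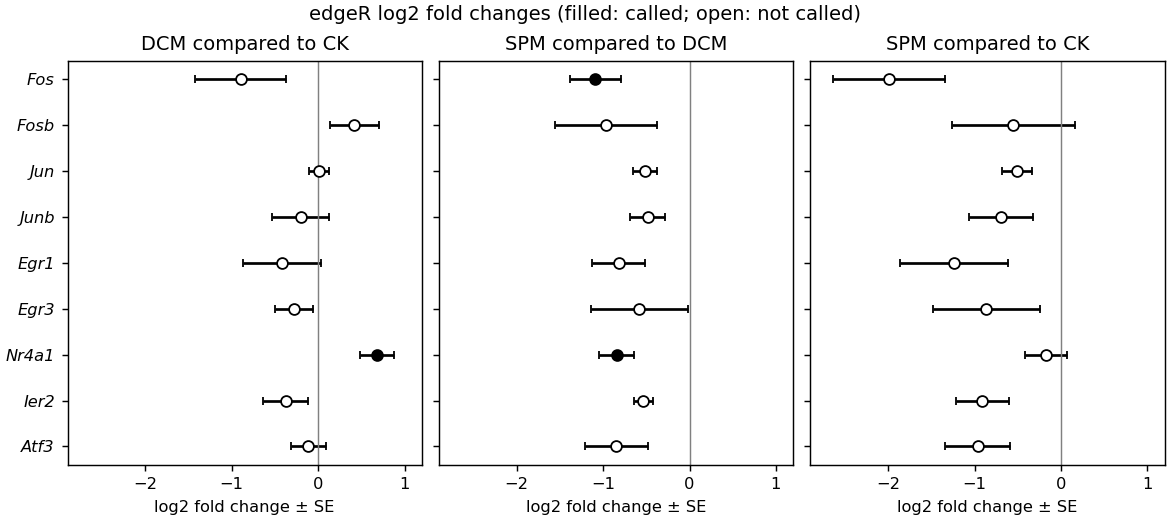
edgeR log2 fold changes with their standard errors (bars) for the 9 genes in DCM compared to CK, SPM compared to DCM and SPM compared to CK, each fitted on the 6 libraries of its pair. Filled points passed the adjusted p and the fold-change limit, which were Nr4a1 in the left panel (0.68) and Fos (-1.09) and Nr4a1 (-0.84) in the middle panel, while all points of the middle and right panels lie below 0.

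In SPM compared to DCM, all 9 fitted changes were below 0 and 2 genes were called. Fos fell by 1.09 on the log2 scale (SE 0.30, adjusted p = 0.0351), from 24.7 ± 10.01 CPM to 11.7 ± 4.52 CPM. Nr4a1 fell by 0.84 (SE 0.21, adjusted p = 0.0254), from 172.0 ± 43.8 CPM to 95.9 ± 27.6 CPM. Of all 14493 genes tested, 3.59% were called and 0.89% were called lower, and 49.3% had a fitted change below 0. Jun and Ier2 passed the adjusted p alone, at 0.0340 and 0.0161, with levels 1.43 and 1.45 times lower, under the fold-change limit. By the adjusted p alone 7.76% of all genes were lower. The groups did not overlap for Fos, Jun, Nr4a1 and Ier2, 4 of the 9 genes, beside 19.5% of all genes in this direction, and without SPM replicate 2 these were again the 4 genes, beside 20.4%.

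The other 5 genes did not pass. Their log2 fold changes were -0.97 for Fosb (SE 0.59), -0.85 for Atf3 (SE 0.36), -0.82 for Egr1 (SE 0.31), -0.58 for Egr3 (SE 0.56) and -0.49 for Junb (SE 0.20), with adjusted p from 0.0900 to 0.494. An unadjusted p below 0.05 was reached by 7 of the 9 genes, beside 16.8% of all genes in this direction. The median over the 9 genes was -0.82, beside 0.01 over all genes.

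The calls of Fos and Nr4a1 depended on the method and the libraries used. The adjusted p of Fos was 0.0790 by DESeq2, 0.212 with all 9 libraries in one edgeR fit and 0.0713 by limma, and that of Nr4a1 was 0.0413, 0.0339 and 0.0522 in the same order. Without SPM replicate 2, the library that resembled a mix, 0 of the 9 genes were called, beside 0.378% of all genes, and the log2 fold changes were -1.06 for Fos (adjusted p = 0.0959) and -0.84 for Nr4a1 (adjusted p = 0.0748), while the median over the genes was -0.84. The adjusted p without DCM replicates 1, 2 and 3 was 0.130, 0.0743 and 0.0680 for Fos and 0.0932, 0.0727 and 0.0532 for Nr4a1. Without SPM replicate 3, all genes but Egr3 were called, 8 of 9 beside 5.29% of all genes, and the median was -1.25. Without SPM replicate 1 the calls of Fos and Nr4a1 remained, beside 3.08% of all genes, and the median was -0.45, and without DCM replicate 1 it was -0.55. The fits without SPM replicate 1 or 3 kept SPM replicate 2 beside a library of which it resembled a mix. Such a pair may not be independent, so the spread within SPM may be understated in the calls of these fits.

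Base composition moved with this comparison. Across 14484 genes the log2 fold change and the GC content of the longest transcript had a Spearman rho of -0.50 over genes, which are not independent replicates. The 9 genes have GC contents of 51.3% to 62.6%, at percentiles 58.7 to 98.8 of the genes tested, and the 6105 genes with a GC content of 51% to 63% had a median log2 fold change of -0.14. With a correction for the GC trend of each library, 0 of the 9 genes and 0.925% of all genes were called, the median of the 9 genes was -0.67, Fos was at -1.04 (adjusted p = 0.0756) and Nr4a1 at -0.70 (adjusted p = 0.0773).

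In SPM compared to CK, all 9 fitted changes were again below 0 and 0 genes were called by edgeR, where 9.21% of 14574 genes were called and 4.12% were called lower. An unadjusted p below 0.05 was reached by 4 genes, Fos, Jun, Ier2 and Atf3, beside 20.9% of all genes in this direction, and DESeq2 called 0 of the 9 (8.69% of all genes) and limma 1, Jun (10.2% of all genes). Fos had the widest difference, from 46.2 ± 43.5 CPM in CK to 11.7 ± 4.52 CPM in SPM, a log2 fold change of -1.99 with SE 0.65 and an adjusted p of 0.0508, and it was at -0.93 without CK replicate 1. The other log2 fold changes ran from -1.24 for Egr1 and -0.96 for Atf3 to -0.17 for Nr4a1. The groups of Ier2 and Atf3 did not overlap, 2 of the 9 genes beside 23.1% of all genes in this direction. The median was -0.86 with all libraries, -0.86 without SPM replicate 2, -0.38 without CK replicate 1, -0.54 without SPM replicate 1 and -0.70 with the GC correction.

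Calls appeared in this comparison when single libraries were left out. Without CK replicate 3, Fos, Jun, Junb and Ier2 were called, beside 8.97% of all genes. Without SPM replicate 3 these were Fos, Jun and Atf3, beside 10.6%, and without CK replicate 2 Ier2 alone, beside 8.44%, so the count ran from 0 to 4. The fit without SPM replicate 3 kept replicate 2, which resembled a mix, so its spread within SPM may be understated. The 3 comparisons share their libraries in pairs, so the lower values of SPM against both other groups come from the same 3 SPM libraries.

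The spread between libraries of the same group was wide for these genes. The pooled SD of log2 CPM within groups was 1.30 for Fosb, 1.07 for Egr3, 1.01 for Fos and 0.92 for Egr1, beside a median of 0.16 over 14909 genes. It was 0.64 for Atf3, 0.59 for Junb, 0.44 for Ier2, 0.41 for Nr4a1 and 0.26 for Jun. For 6 of the 9 genes this SD was above percentile 90 of all genes, and the lowest, Jun, was at percentile 69.7. Low-count genes have wider SDs by sampling alone, so the dispersion of edgeR, which allows for the count, was set against its trend at the same abundance. That ratio ran from 2.92 for Jun to 28.6 for Egr1 with a median of 9.40, beside a median of 0.799 over all genes, and each of the 9 genes was at percentile 97.6 or above.

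**Figure D3:**
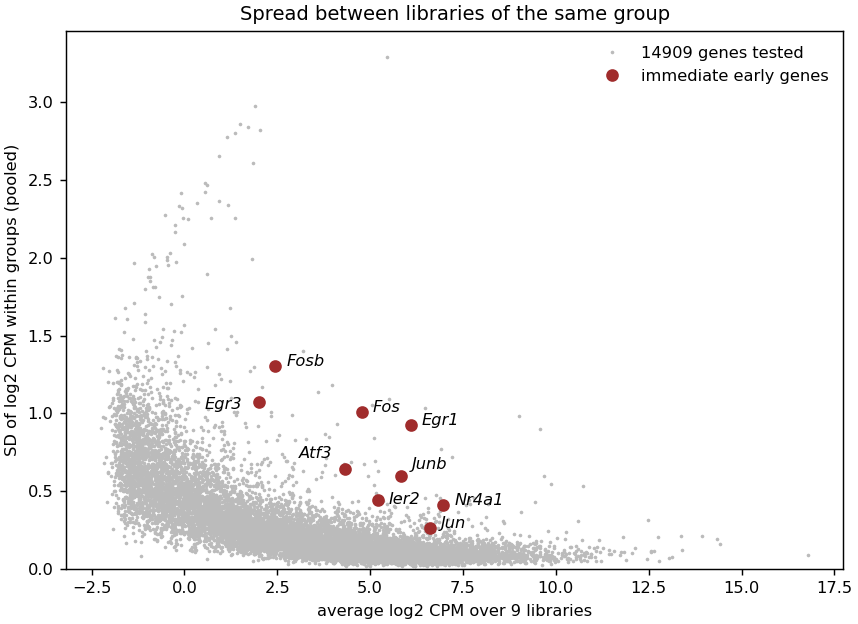
Pooled SD of log2 CPM within groups against the average log2 CPM over 9 libraries, with 14909 genes as grey points and the 9 immediate early genes in red. All 9 lie above the bulk of genes of their abundance, from 0.26 for Jun to 1.30 for Fosb.

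Different groups carried the spread of different genes. Within CK, the SD of log2 CPM was 1.55 for Fos, 1.32 for Egr1, 0.88 for Junb and 0.72 for Ier2, and within SPM it was 2.11 for Fosb, 1.81 for Egr3 and 0.97 for Atf3. Within DCM it was 0.12 for Jun to 0.55 for Fos. Without CK replicate 1 the pooled SD of Ier2 dropped to 0.16, at percentile 55.1, and that of Junb to 0.40, and without SPM replicate 1 that of Fosb dropped to 0.56, that of Egr3 to 0.39 and that of Atf3 to 0.38. Fos stayed at 0.70 or above, percentile 93.8 or above, with any single library left out.

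Within SPM all 9 genes ranked the libraries in the same order, within CK 5 of the 9 did, and within DCM they did not. CK replicate 1 was the highest CK library for 6 genes, Fos, Fosb, Jun, Junb, Egr1 and Ier2, beside 38.1% of all genes, and CK replicate 2 for Egr3, Nr4a1 and Atf3, while CK replicate 3 was the lowest for all but Ier2, beside 32.0% of all genes. DCM replicate 1 was the highest DCM library for Fos, Junb, Egr1, Egr3, Nr4a1 and Atf3, beside 32.3% of all genes, and DCM replicate 2 for Fosb, Jun and Ier2. The lowest DCM library was replicate 2 for Fos, Egr3, Nr4a1 and Atf3, replicate 3 for Jun, Junb, Egr1 and Ier2 and replicate 1 for Fosb. SPM replicate 1 was the lowest of all 9 libraries for 9 of 9 genes, beside 17.1% of all genes, and SPM replicate 3 was the highest SPM library for 9 of 9 genes, beside 42.0% of all genes. As SPM replicate 2 resembled a mix of the other SPM libraries, its middle place for each gene is not a separate observation. The mean deviation of the 9 genes from their own averages on the log2 scale was 0.93, 0.36 and -0.38 in CK replicates 1 to 3, 0.58, 0.21 and 0.12 in DCM and -1.53, -0.38 and 0.10 in SPM, beside a median over all genes of -0.01 to 0.01. The labels give no time of tissue collection.

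**Figure D4:**
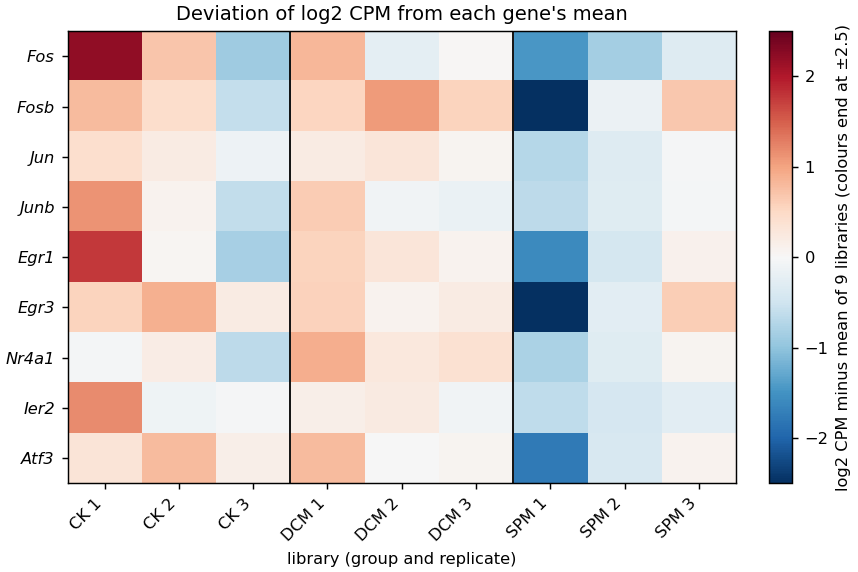
Deviation of log2 CPM from each gene's mean over 9 libraries (colour, ending at ±2.5) for the 9 genes in rows and the 9 libraries in columns, with lines between CK, DCM and SPM. The column of SPM replicate 1 is blue for every gene, with Fosb (-3.33) and Egr3 (-2.86) beyond the end of the colours, and Fos (2.22) and Egr1 (1.78) are deepest red in CK replicate 1.

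Of 57 other early-response genes on a fixed list, 52 were tested, and called members moved in both directions. In DCM compared to CK 5 of 52 rose, beside 2.03% of all genes, and 0 fell, with a median log2 fold change of 0.07. Apold1, an endothelial early gene, rose by 1.03 (26.1 ± 4.18 to 53.7 ± 24.1 CPM), the clock gene Per1 by 0.97, the growth arrest gene Gadd45b by 0.90, the transcription factor gene Cebpd by 0.64 and the NF-kappa B inhibitor gene Nfkbia by 0.60. Between SPM and DCM 3 of 52 fell, beside 0.89% of all genes, and 0 rose, with a median of -0.06. Dusp1, a phosphatase that turns off MAP kinases, fell by 0.73 (222.9 ± 24.9 to 134.2 ± 38.4 CPM), Sik1, a kinase induced by cAMP, by 0.75, and the transcription factor gene Cebpb by 1.01. Each of the 3 calls was lost without any 1 of the DCM libraries, without SPM replicate 1 or 2 and with the GC correction. Sik1 and Dusp1 were called without SPM replicate 3, a fit that kept replicate 2, which resembled a mix. In DCM compared to CK, only Gadd45b and Cebpd were called without DCM replicate 2 and only Gadd45b and Per1 by limma, and the calls of Cebpd and Nfkbia were lost without CK replicate 1.

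Between SPM and CK 8 of the 52 genes were called, beside 9.21% of all genes, with a median of -0.04. Gadd45b rose by 1.63, Per1 by 0.91, Cebpd and the clock repressor gene Bhlhe40 by 0.76 each and Nfkbia by 0.64, while Ier5l fell by 0.64, Fosl1 by 0.63 and Klf4 by 0.59. Without SPM replicate 2, Gadd45b, Cebpd, Bhlhe40 and Nfkbia were called and the other 4 were not, and 5.18% of all genes were called. With the GC correction, where 7.29% of all genes were called, 7 of the 52 were called and all 7 were higher in SPM, with Gadd45g and Maff added and Ier5l, Fosl1 and Klf4 lost. Gadd45b was at 37.8, 26.5 and 16.0 CPM in SPM replicates 1 to 3, against the order of the 9 genes. Btg2, an antiproliferative early gene, followed them. It was at 174.7, 113.8 and 82.1 CPM in CK, at 145.6, 113.0 and 113.8 CPM in DCM and at 48.1, 79.7 and 105.3 CPM in SPM. The list had a median percentile of 66.1 for the pooled SD and of 92.6 for the dispersion, whose ratio to its trend had a median of 1.77, and the pooled SD was above percentile 90 for 5 of 52 genes, among them Nr4a3 (0.99) and Nr4a2 (0.60), the paralogs of Nr4a1.

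Among 18 tested AP-1, EGR and NR4A partners of the 9 proteins, 0 were called in DCM compared to CK and in SPM compared to DCM by edgeR, beside 4.34% and 3.59% of all genes. An unadjusted p below 0.05 was reached by 4 and 5 of the 18, beside 24.6% and 34.6% of all genes. Between SPM and CK Fosl1 and Batf3 fell, by 0.63 and 1.19, which was 2 of 18 genes beside 9.21% of all genes, and neither was called without SPM replicate 2 (adjusted p = 0.133 and 0.150 by edgeR) or with the GC correction. Of the upstream regulators, 28 or 29 were tested. Calls were 1, 1 and 2 for DCM to CK, SPM to DCM and SPM to CK, beside 4.34%, 3.59% and 9.21% of all genes. Crem, which encodes cAMP-responsive repressors and activators, fell in each comparison, by 0.60, 0.63 and 1.24 in the same order. Its libraries were at 9.95 to 12.0 CPM in CK, 6.08 to 8.19 CPM in DCM and 4.59 to 5.05 CPM in SPM. The groups of Crem did not overlap in any comparison, as for 14.8%, 19.5% and 23.1% of all genes in this direction. Its call between SPM and CK remained without SPM replicate 2 (adjusted p = 0.00619 by edgeR), that between SPM and DCM did not (adjusted p = 0.109), and that between DCM and CK was lost with the GC correction, where its change of -0.55 was under the fold-change limit. Mef2a, a muscle transcription factor gene, rose by 0.68 between CK and SPM, a call lost without SPM replicate 2 (adjusted p = 0.0542 by edgeR) and with the GC correction, and no other regulator was called in the 3 comparisons by edgeR. Srf, which encodes serum response factor, was not analysed here.

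The heat shock genes, a fixed list of 11 chaperone genes that also respond to tissue stress, were less variable than the 9 genes in these values. Of 10 tested, 1 had a pooled SD above percentile 90, Hspa1b (0.69), and the median percentile was 37.5. Hspa1b fell by 1.02 in SPM compared to CK, 1 of 10 genes beside 9.21% of all genes, and was not called without SPM replicate 2 (adjusted p = 0.144 by edgeR) or with the GC correction, where Dnaja1 was called in its place. In DCM compared to CK and in SPM compared to DCM 0 were called by edgeR, beside 4.34% and 3.59% of all genes, with 4 and 6 at an unadjusted p below 0.05, beside 24.6% and 34.6%. Hspa1b was at 12.5 CPM in CK replicate 3 and 13.7 CPM in DCM replicate 1 and at 3.25 to 6.14 CPM in the other 7 libraries, so its high libraries were not all those of the immediate early genes.

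Globin mRNA, which comes from red blood cells, shared the library order of the immediate early genes within CK and SPM but not within DCM. The summed level of the 9 genes was at 755.9, 466.0 and 299.1 CPM in CK replicates 1 to 3, at 612.8, 465.7 and 441.0 CPM in DCM and at 214.1, 314.0 and 404.3 CPM in SPM. The summed level of 4 adult globin genes was at 3621, 2734 and 1542 CPM in CK, at 3283, 1330 and 1776 CPM in DCM and at 758.8, 1037 and 1295 CPM in SPM. Hbb-bt alone broke the order of the sum within SPM, at 54.9, 92.8 and 85.1 CPM. Within CK, replicate 1 was the highest library for 38.1% of all genes and replicate 3 the lowest for 32.0%. Within SPM, replicate 1 was the lowest for 42.1% of all genes and replicate 3 the highest for 42.0%, while replicate 2 resembled a mix of them. All 4 globin genes were called lower in SPM compared to DCM, beside 0.89% of all genes, and in SPM compared to CK, beside 4.12%. Without SPM replicate 2, 0 of the 4 were called in the first of these, with adjusted p of 0.0763 to 0.112 by edgeR. The second then had 3 calls, all but Hbb-bt. Of all genes, 0.378% and 5.18% were called without that library. With the GC correction 0 and 4 were called, beside 0.925% and 7.29% of all genes. Of the 4 genes, 0 were called in DCM compared to CK by edgeR, beside 4.34% of all genes. An unadjusted p below 0.05 was reached by 0 of them, beside 24.6%. The summed level of 3 B cell markers was also in the order of the 9 genes within CK and within SPM. It was at 16.3, 12.7 and 4.35 CPM in CK and at 2.34, 3.76 and 4.49 CPM in SPM. So was that of 5 endothelial markers, at 2052, 1832 and 1802 CPM in CK and at 1646, 1694 and 1749 CPM in SPM. Within SPM alone, the sums of 6 cardiomyocyte markers (35405, 38304 and 40825 CPM) and of 4 atrial markers (1028, 1400 and 1700 CPM) were in the order of the 9 genes. Of the cardiomyocyte markers, Myh6 (13964, 17408 and 20253 CPM), Ryr2 and Mybpc3 kept this order. Tnnt2 (6116, 5851 and 5555 CPM), Tnni3 and Myl2 ran in reverse. The summed level of 4 fibroblast markers ran against the order of the 9 genes within SPM, at 1390, 1345 and 1318 CPM. So did the sums of some other cell types. Of the fibroblast markers, Dcn ran that way, at 1080, 987.0 and 908.8 CPM. Col1a1 (74.3, 96.7 and 122.4 CPM) and Col1a2 (137.0, 161.4 and 191.5 CPM) kept the order of the 9 genes, and Pdgfra did neither. The part of blood in the values of the immediate early genes was not tested.

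**Figure D5:**
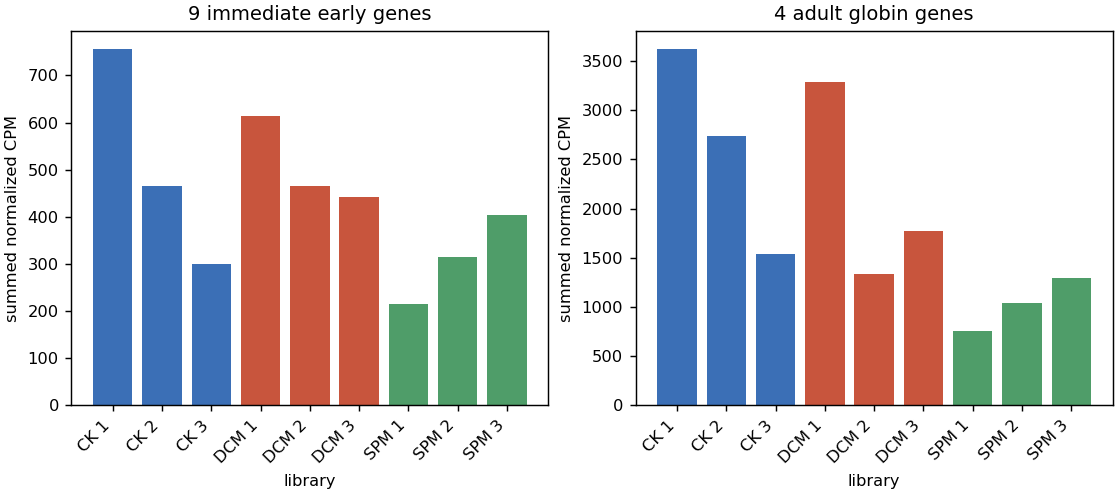
Summed normalized CPM of the 9 immediate early genes (left) and of 4 adult globin genes (right) in each library, coloured by group. Both sums decline from CK replicate 1 (755.9 and 3621 CPM) to CK replicate 3 (299.1 and 1542 CPM), and both are lowest in SPM replicate 1 (214.1 and 758.8 CPM).

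Neutrophil markers were highest in SPM. The summed level of 5 neutrophil markers was at 10.9, 8.68 and 5.39 CPM in CK replicates 1 to 3, at 15.2, 11.7 and 27.6 CPM in DCM and at 58.1, 43.1 and 29.6 CPM in SPM, which is the order of the 9 genes within CK and the reverse of it within SPM. All 5 markers were called higher in SPM compared to DCM and in SPM compared to CK, beside 2.7% and 5.08% of all genes. Without SPM replicate 2 the calls were 1, Ngp, and 5, beside 0.378% and 5.18% of all genes. With the GC correction they were 2, Ngp and S100a8, and 5, beside 0.925% and 7.29%. With both changes they were 0 and 5, beside 0% and 4.09%. The summed level of 6 macrophage markers was at 755.8, 737.6 and 585.8 CPM in CK, at 572.8, 502.8 and 495.8 CPM in DCM and at 965.9, 723.2 and 586.1 CPM in SPM, again the order of the 9 genes within CK and the reverse within SPM. Both sums were highest in SPM replicate 1, the library with the lowest immediate early genes, at 58.1 and 965.9 CPM. The summed endothelial markers were 1802 to 2052 CPM in CK, 1754 to 1913 CPM in DCM and 1646 to 1749 CPM in SPM. The summed cardiomyocyte markers were at 42256 to 47556, 40628 to 48246 and 35405 to 40825 CPM in CK, DCM and SPM, lowest in SPM replicate 1. Of these markers only Myh6 was itself lowest there, at 13964 CPM, and Tnnt2 had its highest library there, at 6116 CPM. The part of these cell types in the values of the 9 genes was not tested. In bulk RNA, fewer cells of a type and less RNA per cell cannot be told apart.

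The genes whose pattern was most like that of Fos were named by Pearson correlation of log2 CPM over the 9 libraries among 12606 genes, as a description over points that share their libraries and depth. Outside the lists these were Mkrn1 (0.960), Sertad3 (0.953), Tada3 (0.946), Ino80e (0.944) and Tent5c (0.942). Among the 9 genes, Junb (0.958) and Egr1 (0.935) were closest to Fos, followed by Ier2 (0.872) and Jun (0.835), and Nr4a1 (0.574) was least like it. To the mean pattern of the 9 genes the closest outside the lists were Zdhhc18 (0.977), Slc6a8 (0.973), Moxd1 (0.955), Dnal4 (0.953) and Dyrk1b (0.944), and on the early-response list Btg2 (0.996) and Dusp1 (0.946). Without SPM replicate 2, the 5 genes most like Fos were Tomm40l (0.982), Mkrn1 (0.956), Sertad3 (0.95005), Commd4 (0.943) and Tada3 (0.942), so Ino80e and Tent5c gave way to Tomm40l and Commd4. Zdhhc18, Slc6a8, Moxd1 and Dnal4 remained among the closest to the mean pattern.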

How the data were processed

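RNA of 9 heart libraries was compared, 3 each of CK, DCM and SPM, grouped by their deposited labels. The authors deposited raw counts of filtered reads for each gene, which are whole numbers. They also deposited FPKM values, which are those counts scaled by a length for each gene and by the library total. The submitters' processing notes name Bowtie 0.12.2 and the builds mm8 and mm9 with no role, and for the counting tool and annotation nothing is stated in the sources used here. The members and gene lists were chosen with earlier results of these data known. Of 22851 identifiers, 22820 matched GENCODE M21.

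Each pair of groups was fitted on its 6 libraries with edgeR 4.0.16 (R 4.3.3), using filterByExpr, TMM factors (0.967 to 1.05) and the quasi-likelihood F-test, and p-values were adjusted by Benjamini-Hochberg over all genes tested. A call needs an adjusted p under 0.05 and a change of 1.5-fold or more. The steps were tested on simulated data. Levels are CPM scaled by TMM, and log2 CPM used a prior count of 2. The common biological coefficient of variation was 0.122 over 14909 genes. Members were all named, and from other lists the called genes, up to 8 a list, and the 5 genes most like Fos and like the members' mean. Btg2, Hspa1b, Nr4a2, Nr4a3 and the marker sums were described after their values were seen. Alternatives were DESeq2 1.42.0, limma 3.58.1 on log2 of FPKM plus 0.1, a replicate block, RLE size factors, a single fit of all 9 libraries, no low-count filter, a filter of 1 CPM in 3 libraries or more, no fold-change limit and each library left out. A GC correction (lowess span 0.3) was also run, and its fit without SPM replicate 2 was added after seeing the data. Promoters came from RefSeq, with entries for 6 members. Tables and figures used Python 3.11.15, pandas 2.3.3, scipy 1.17.1 and matplotlib 3.10.9.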

Additional observations from a re-analysis of the deposited data

How the results depend on the processing

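The lower fitted values of all 9 genes in SPM compared to DCM kept their direction under each alternative run, while the number called did not. In DCM compared to CK the count of called genes was 1 in the test reported, 0 with DESeq2, with all 9 libraries in one fit and with limma, 2 without the low-count filter and 0 to 2 with 1 library left out. Of all genes, 2.86% to 4.81% were called under these settings. In SPM compared to DCM it was 2 in the test reported, 1 with DESeq2 and with all 9 libraries, 0 with limma, with the GC correction and with that correction without SPM replicate 2, 4 without the fold-change limit and 0 to 8 with 1 library left out. Of all genes, 16.6% were called without the fold-change limit and 0% to 5.29% under the other settings named. In SPM compared to CK it was 0 in the test reported, 2 without the low-count filter and with all 9 libraries, 1 with the filter of at least 1 CPM and with limma, and 0 to 4 with 1 library left out. Here 5.18% to 10.6% of all genes were called. For the 52 other early-response genes the counts were 5, 3 and 8 in the 3 comparisons. With limma they were 2 in DCM compared to CK and 1 in SPM compared to DCM, beside 4.81% and 2.66% of all genes. Without the fold-change limit they were 9 in SPM compared to DCM and 16 in SPM compared to CK, beside 16.6% and 27.4%. In SPM compared to DCM they were also 5 without the low-count filter, 1 with all 9 libraries and 0 with the GC correction, with or without SPM replicate 2. The shares of all genes called were 3.32%, 3.51%, 0.925% and, without SPM replicate 2, 0%. With 1 library left out they were 2 to 7, 0 to 13 and 4 to 9. Those fits called 2.86% to 4.73%, 0.378% to 5.29% and 5.18% to 10.6% of all genes. Fits without SPM replicate 1 or 3 kept replicate 2, which resembled a mix of both, so their spread within SPM may be understated.

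With the replicate number as a block, 1, 3 and 1 of the 9 genes were called, the last being Atf3 in SPM compared to CK, and 6, 6 and 8 of the other early-response genes. Of all genes, 3.94%, 4.21% and 8.8% were called with the block. Residuals of libraries with the same number had correlations of -0.0746 to 0.205, and those of other numbers -0.284 to 0.217. Of the 9 libraries, 3 correlated best with their own number. With so few libraries, and SPM replicate 2 resembling a mix, these values cannot settle whether the numbers pair the libraries.

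Signs changed only for genes that were not called in the test reported. In DCM compared to CK, the log2 fold change with 1 library left out ran from -1.36 to 0.17 for Fos, -0.52 to 0.40 for Junb, -0.83 to 0.65 for Egr1 and -0.60 to 0.17 for Ier2, each with its highest value without CK replicate 1. That of Jun ran from -0.12 to 0.15, with -0.12 without CK replicate 3 and -0.043 without DCM replicate 2, and was -0.062 with limma. That of Atf3 ran from -0.41 to 0.096, with 0.096 without CK replicate 2, 0.026 without DCM replicate 2 and 0.0057 without DCM replicate 3. In SPM compared to CK, that of Nr4a1 ran from -0.40 to 0.025, with 0.018 without CK replicate 2 and 0.025 without SPM replicate 1. The adjusted p of Nr4a1 in DCM compared to CK was 0.157 with DESeq2 and 1.35e-10 without the low-count filter, and the cause of these changes was not tested. With 3 libraries a group, and 12 and 13 counts behind the lowest values of Fosb and Egr3, changes in those genes could not be resolved beyond their spread.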
